A study of Mus musculus with 8 samples.

Results

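Synaptotagmins are membrane-trafficking proteins built around a pair of C2 domains, and the best known of them bind calcium with these domains and trigger the fusion of synaptic vesicles. The 9 synaptotagmin genes described here, Syt4, Syt8, Syt11, Syt12, Syt13, Syt14, Syt15, Syt16 and Syt17, are the ones not assigned such a role. They were taken by gene name from a count table of 46078 rows, in which each of the 9 names had 1 row, and 8 of the 9 had enough reads to be tested. The remaining 8 synaptotagmins (Syt1, Syt2, Syt3, Syt5, Syt6, Syt7, Syt9 and Syt10) are used only for comparison. Whether a protein triggers fusion cannot be read from RNA, so the name of the group rests on background knowledge and was not checked in these data.

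The libraries hold poly(A) RNA from the hippocampus of 9-week-old C57BL/6J mice of 2 genotypes, with 4 libraries each. WT mice carry no transgene. Cre mice are hemizygous for Tg(Camk2a-cre)T29-1Stl (T29-1), a transgene in which Cre recombinase is driven by the Camk2a promoter, active in excitatory neurons of the forebrain. The labels name no floxed allele in either group. T29-1 is a single transgenic line, and the labels do not say whether a library comes from 1 animal or from a pool. The series title names Syt2 as ectopically overexpressed in a Cre line of this kind, so the question put to its relatives here is whether their transcripts differ between the genotypes.

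In the proteins of this group the C2 domains have mostly lost residues that bind calcium in Syt1. Syt4 and Syt11 are close relatives that share a serine in place of a calcium-binding aspartate of the first C2 domain, and both sit on vesicles of neurons. Syt4 is known from dense-core vesicles, which carry neuropeptides and BDNF, and Syt11 from the control of endocytosis and from its link to the ubiquitin ligase parkin. Syt12 is a vesicle protein phosphorylated by protein kinase A. Syt13, Syt14, Syt15 and Syt16 are calcium-independent forms, and Syt17 lacks the usual membrane-spanning segment. Syt8 has been described mainly outside the brain, in epithelia and germ cells.

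Start regions of 2 members with contrasting levels, Syt14, read in every library, and Syt8, almost without reads, are shown as the 250 bases before the RefSeq start site (GRCm38.p6), 5′ to 3′ on the strand of the gene, with every CG dinucleotide in capitals. The Syt14 window is chr1:193035776-193036025 on the minus strand and the Syt8 window is chr7:142434600-142434849 on the plus strand. Neither window overlaps an annotated exon.
Syt14: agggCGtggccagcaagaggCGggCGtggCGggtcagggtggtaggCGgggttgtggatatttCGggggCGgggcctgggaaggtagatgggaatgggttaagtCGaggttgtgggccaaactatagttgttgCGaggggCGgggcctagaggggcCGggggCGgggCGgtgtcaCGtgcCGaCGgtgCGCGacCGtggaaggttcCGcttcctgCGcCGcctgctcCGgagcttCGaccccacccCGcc
Syt8: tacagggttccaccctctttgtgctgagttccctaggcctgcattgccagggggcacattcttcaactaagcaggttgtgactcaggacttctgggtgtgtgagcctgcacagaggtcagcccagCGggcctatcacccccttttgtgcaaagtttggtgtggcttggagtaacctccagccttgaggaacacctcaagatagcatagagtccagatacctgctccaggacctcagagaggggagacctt

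The Syt14 window held 25 CG dinucleotides and the Syt8 window 1. Over all 32851 such windows in the RefSeq table the median was 6, 10.7% held at least 25 and 18.8% held at most 1. Windows of 5 members were read, Syt4 being left out. Those of Syt16, Syt15 and Syt11, which overlap annotated exons and are not shown, held 30, 15 and 9 CG dinucleotides, and 2 further starts of Syt8 held 2 and 1. Syt15, with 15 CG dinucleotides, had the lowest level of the tested members, and Syt11, with 9, had the highest. Among the 5 members with a window the number of CG dinucleotides thus did not follow the order of the levels, but this rests on Syt11 alone. Without Syt11, the windows shown or named first for Syt16, Syt14, Syt15 and Syt8 held 30, 25, 15 and 1, which is the order of their levels. The windows of Syt11 and Syt15 lie within the annotated spans of these genes. CG is the same on both strands, and the count describes these letters only.

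The libraries held 23358289 to 30882631 counts. Markers of the neurons and glia of the hippocampus were present in all 8 libraries: the summed level of 7 markers of excitatory principal neurons was 8100 to 8368 CPM (read counts scaled to library size) in WT and 7647 to 8284 CPM in Cre, and that of 8 astrocyte markers was 2227 to 2446 CPM in WT and 2262 to 2443 CPM in Cre. Markers of neighbouring tissue were present as well, with 22.1 to 27.5 CPM in WT and 25.2 to 52.9 CPM in Cre summed over 8 choroid plexus genes. The sum over 6 meningeal fibroblast genes was 101 to 116 CPM in WT and 97.3 to 156 CPM in Cre. Over 5 blood cell genes it was 34.5 to 61.9 CPM in WT and 29.9 to 47.5 CPM in Cre. None of the markers in the 15 cell type lists was at 0 in all libraries. On the first principal component, computed from log2 CPM and holding 41.5% of the variance, WT replicate 4 scored -20.7 and the other libraries 0.09 to 5.69, so the fold changes that turned sign without it are given with that library left out as well.

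The transcripts of these 9 genes come from loci of very different size on 8 chromosomes (GRCm38, GENCODE M21). Syt8 is the shortest, spanning 5.5 kb of chromosome 7 (142434850 to 142440396), and Syt16 the longest, spanning 275.6 kb of chromosome 12 (73997661 to 74273267). Syt11 lies on chromosome 3 (88744700 to 88775164), Syt13 on chromosome 2 (92915098 to 92956058), Syt4 on chromosome 18 (31437808 to 31447406) and Syt17 on chromosome 7 (118380717 to 118448222). Syt12 lies on chromosome 19 (4445908 to 4477447), Syt14 on chromosome 1 (192891233 to 193035775) and Syt15 on chromosome 14 (34219595 to 34230420). All 9 are annotated as protein-coding, with 4 to 9 exons in the longest transcript. Syt4, Syt12 and Syt16 are overlapped by a noncoding gene on the opposite strand (Gm26658, A930001C03Rik and Gm29587), but these held at most 12, 3 and 4 reads in any library.

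Syt11 was by far the most abundant transcript of the group and Syt8 was almost absent. Levels of different genes are compared as CPM per kilobase (kb) of exon, since longer transcripts collect more reads. Syt11 stood at 182 ± 8.51 CPM per kb in WT and 181 ± 5.99 in Cre (SD, n = 4 each), above 99.1% of the 15204 tested genes with a known length. Syt13 followed at 64.7 ± 1.92 in WT and 64.4 ± 3.39 in Cre, and Syt4 at 42.8 ± 2.24 in WT and 44.4 ± 0.87 in Cre (SD, n = 4 each, CPM per kb). These 3 genes stood above 93.6% or more of the tested genes and formed the upper tier of the group.

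A middle tier held 4 genes, which stood above 35.9% (Syt14) to 73.5% (Syt17) of the tested genes. Syt17 was at 11.6 ± 0.46 CPM per kb in WT and 11.8 ± 0.61 in Cre, and Syt16 at 7.26 ± 0.10 in WT and 7.22 ± 0.58 in Cre (SD, n = 4 each). Syt12 was at 6.42 ± 0.41 in WT and 6.31 ± 0.60 in Cre, and Syt14 at 2.32 ± 0.30 in WT and 2.37 ± 0.18 in Cre (SD, n = 4 each, CPM per kb). Syt15 came 21.8-fold below Syt14 in WT and 16.1-fold below it in Cre, at 0.11 ± 0.02 and 0.15 ± 0.03 CPM per kb (SD, n = 4 each), and only 2.07% of the tested genes were lower.

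The order of the 9 genes was the same in both genotypes. Neighbours in it had separate ranges over the 4 libraries of a genotype at every step but one: Syt16 and Syt12 were separate in WT and overlapped in Cre, with means 1.13-fold and 1.14-fold apart. The length taken for a gene matters here. With the longest transcript in place of all annotated exons, Syt12 stood above Syt16 (9.93 and 8.14 CPM per kb in WT), Syt17 stood at 20.4 and the other steps of the order held.

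**Figure D1:**
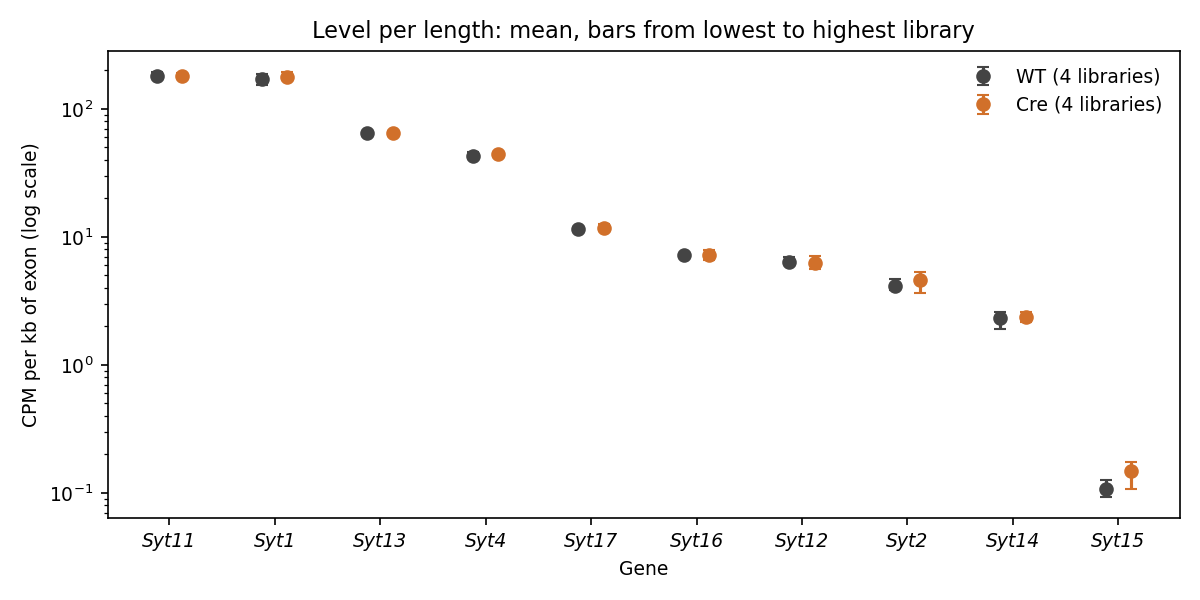
Level of each gene in CPM per kb of annotated exon on a log axis, with WT in grey and Cre in orange. Points are means of 4 libraries and bars run from the lowest to the highest library. Syt8, at 0 in 7 of 8 libraries, cannot be drawn on this axis. Syt11 and Syt1 lie side by side at the top, near 182 and 170 CPM per kb in WT, and Syt15 lies lowest at 0.11.

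Syt1, the main calcium sensor of forebrain synapses, gives a scale for these levels. It stood at 170 ± 15.03 CPM per kb in WT and 179 ± 11.6 in Cre (SD, n = 4 each), so the ranges of Syt1 and Syt11 overlapped in both genotypes. With the longest transcript as the length, Syt1 stood above Syt11, at 294 against 189 CPM per kb in WT with ranges that did not overlap. Syt2, at 4.17 ± 0.39 CPM per kb in WT and 4.602 ± 0.70 in Cre (SD, n = 4 each), lay between Syt12 and Syt14.

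Together the 9 genes made up 48.5% to 51.8% of the summed CPM per kb of the 17 synaptotagmins in the 8 libraries. The share was 50.04% ± 1.36 in WT and 49.4% ± 0.52 in Cre (SD, n = 4 each). Syt11 alone held 28.7% ± 1.22 in WT and 28.1% ± 0.36 in Cre (SD, n = 4 each), next to 26.8% ± 2.03 and 27.8% ± 1.06 for Syt1. The highest share of the group, 51.8%, was that of WT replicate 4, where Syt11 held 30.5% and Syt1 its lowest share, 24.0%. With the length of the longest transcript the share of the 9 genes was 41.7% in WT and 40.9% in Cre.

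**Figure D2:**
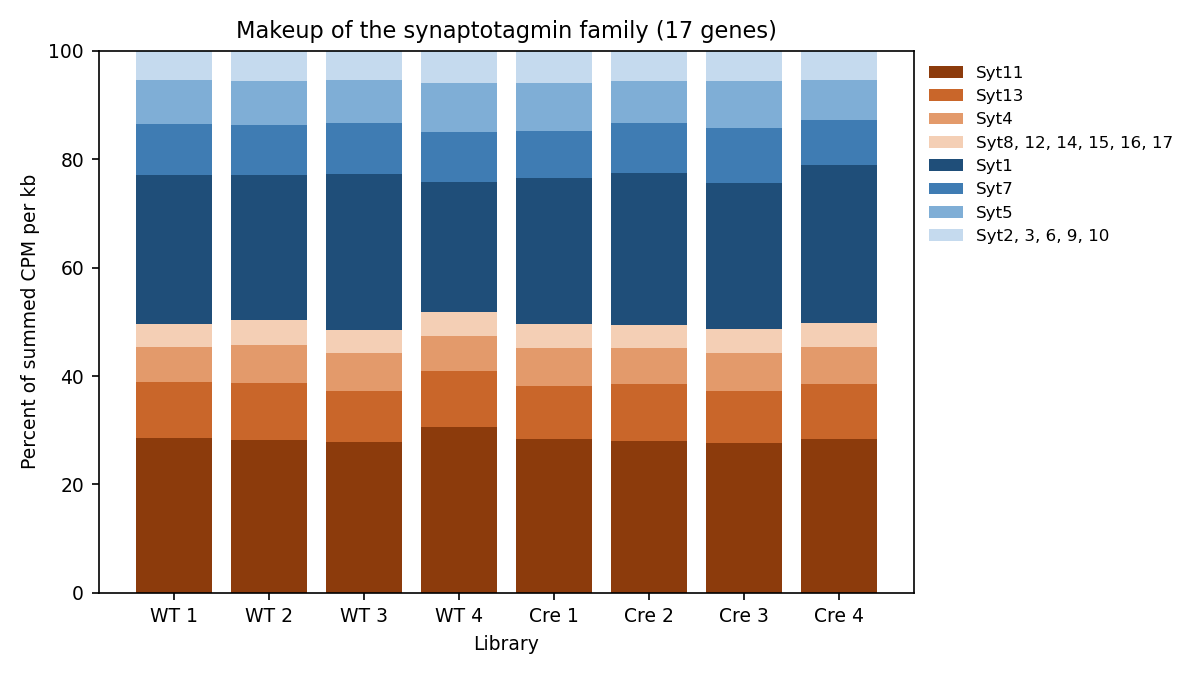
Share of the summed CPM per kb of the 17 synaptotagmins held by each gene or group of genes, in percent, with 1 bar for each library. Shades of brown are the genes described here and shades of blue the other 8 synaptotagmins. The boundary between brown and blue lies between 48.5% and 51.8% in all libraries, with WT replicate 4 highest.

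None of the 8 tested members passed the threshold between the genotypes, and Syt8 had too few reads to test. edgeR's quasi-likelihood test called 0 of the 8 members tested at a Benjamini-Hochberg adjusted p under 0.05, where 0.00625% of the 15996 genes tested were called (1 gene, St6gal2, higher in Cre). At an unadjusted p under 0.05 there were 0 members, against 2.43% of all genes, and DESeq2 and limma-voom also gave 0 members at either threshold, where they had 1.67% and 2.41% of all genes at an unadjusted p under 0.05 and 0.00625% each past the adjusted one. Libraries of the genotypes overlapped for all 8 tested members, and Syt8 had too few reads to separate. They did not overlap for 1.81% of all genes tested, and 0 of 8 members is close to that share. A total of 4 members had a higher and 4 a lower value in Cre. Their median log2 fold change was 0.01, and that of all genes tested was -0.0008. The adjusted p was 0.998 for each member. In bulk tissue, fewer cells of a type and less RNA per cell cannot be told apart. The p-values set the difference between the genotypes against the spread between libraries. The labels do not say that libraries come from separate animals, so this spread may not be that between animals.

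Among the members of the upper tier, Syt11 was read 21782 to 28936 times per library. Its level was 942, 903, 944 and 1010 CPM in WT replicates 1 to 4 and 920, 936, 920 and 986 CPM in Cre replicates 1 to 4. The highest library was WT replicate 4 and the lowest WT replicate 2, so the Cre libraries lay inside the WT range. The log2 fold change was -0.01 (SE 0.0478), and its 95% interval ran from 0.922-fold to 1.06-fold. Without WT replicate 4 the value was 0.02.

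Syt4, the dense-core vesicle form, was at 158, 168, 178 and 163 CPM in WT and 172, 169, 173 and 177 CPM in Cre, for replicates 1 to 4. All 4 Cre libraries lay above 3 of the WT libraries and below WT replicate 3. The log2 fold change was 0.05 (SE 0.0483), with an interval of 0.964-fold to 1.11-fold, and the exact two-sided permutation test over all 70 assignments gave p = 0.229, where the smallest possible p is 0.0286. Leaving out 1 library moved the value between 0.0247 (WT replicate 1) and 0.0844 (WT replicate 3).

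Syt13, a calcium-independent form, was at 249, 243, 233 and 248 CPM in WT and 231, 253, 232 and 254 CPM in Cre. Of the Cre libraries 2 lay above all WT libraries and 2 below all of them. The log2 fold change was -0.01 (SE 0.0493), with an interval of 0.925-fold to 1.07-fold, and it was 0.0045 without WT replicate 4.

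**Figure D3:**
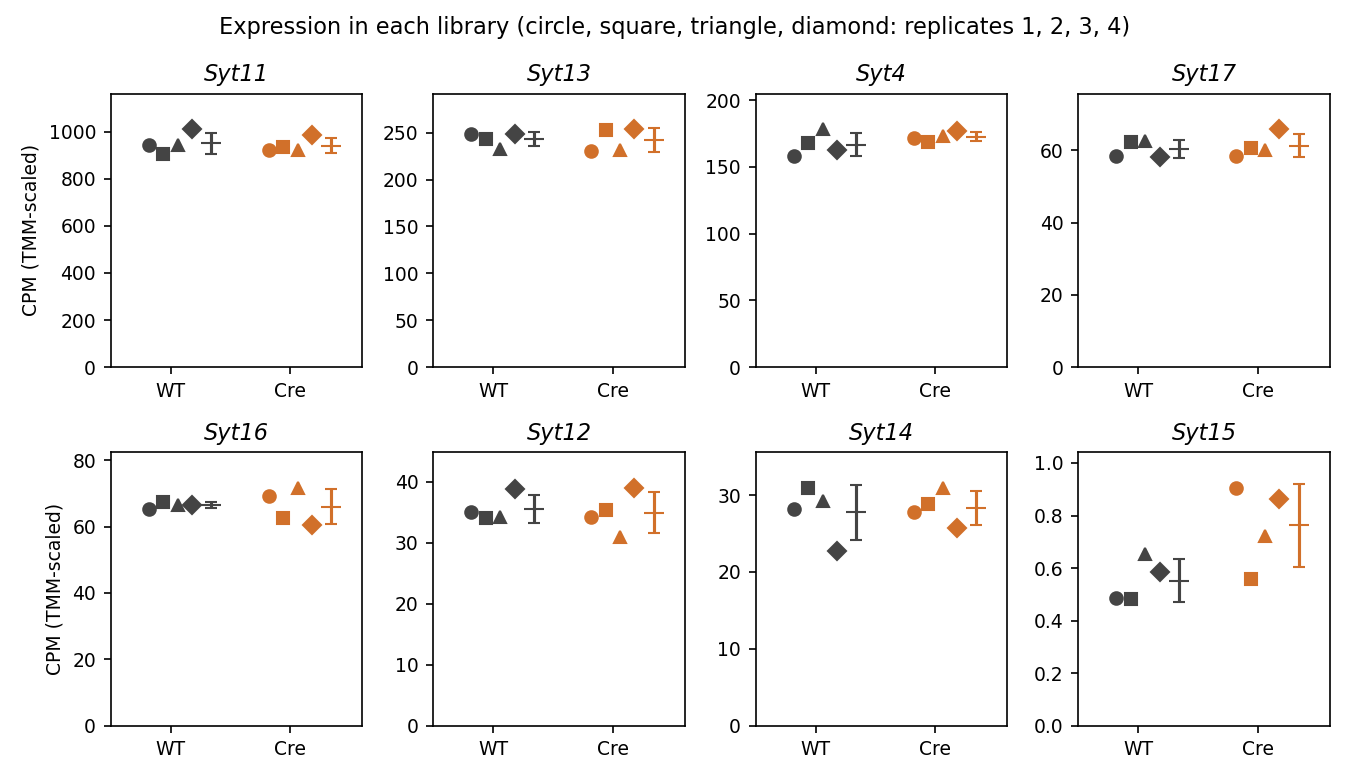
CPM of the 8 tested members in each library, on a linear axis from 0 with its own scale in each panel. Grey is WT and orange Cre, the shape gives the replicate number, and the bar beside the points is the mean ± SD (n = 4). The genotypes overlap in every panel. WT replicate 4 (grey diamond) is the lowest library for Syt14, and 3 of the 4 Cre libraries lie above all WT libraries for Syt15.

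In the middle tier, Syt17 was at 58.5, 62.3, 62.5 and 58.0 CPM in WT and 58.4, 60.5, 60.1 and 65.8 CPM in Cre, with a log2 fold change of 0.02 (SE 0.0529), or 0.0039 without WT replicate 4. Cre replicate 4 was its highest library and the other 3 Cre libraries lay within the WT range. Syt16, a form without a membrane-spanning segment, was at 65.2, 67.4, 66.4 and 66.6 CPM in WT and 69.2, 62.7, 71.7 and 60.5 CPM in Cre, with a log2 fold change of -0.01 (SE 0.0576). Its WT libraries lay close together, with a coefficient of variation of 1.35%, inside a wider Cre range with 8.03%, and this difference in spread was not tested.

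Syt12 was at 35.1, 34.1, 34.2 and 38.9 CPM in WT and 34.3, 35.5, 30.9 and 39.04 CPM in Cre. Its lowest and highest libraries were both Cre libraries, and the log2 fold change was -0.02 (SE 0.0719), with an interval of 0.883-fold to 1.09-fold. Without WT replicate 4 the value was 0.02. Syt14, a close relative of Syt16, was at 28.2, 30.9, 29.2 and 22.7 CPM in WT and 27.8, 28.8, 31.0 and 25.7 CPM in Cre. WT replicate 4 was lowest, 0.37 below the mean of the other WT libraries on the log2 scale, where this deviation had a median size of 0.143 over genes averaging 5 CPM or more. The log2 fold change of Syt14 was 0.03 (SE 0.0873) with all libraries, -0.05 without WT replicate 4 and -0.02 without Cre replicate 3, so its sign turned on leaving out either library.

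Syt15 had the largest difference of the group, on few reads. It was read 13, 12, 20 and 14 times in WT replicates 1 to 4 and 24, 13, 20 and 23 times in Cre replicates 1 to 4, or 0.49, 0.48, 0.65 and 0.58 CPM and 0.91, 0.56, 0.72 and 0.86 CPM. Of the 4 Cre libraries 3 lay above all WT libraries, and Cre replicate 2 lay within the WT range. The log2 fold change was 0.46 (SE 0.252, unadjusted p = 0.0884, edgeR adjusted p = 0.998), and the exact two-sided permutation test gave p = 0.0857. The 95% interval ran from 0.946-fold to 2.01-fold, so a rise up to 2.01-fold lies inside it and no difference lies inside it as well. Leaving out each library in turn moved the value between 0.37 and 0.58.

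Syt8 had 1 read in all, in Cre replicate 2, and 0 in the other 7 libraries. It was under the filter on low counts and was not tested. A limit of 3 counts, which holds for 0 reads, corresponds to 0.0283 CPM over the 4 WT libraries, for counting error only. In Cre 3 counts correspond to 0.0288 CPM, and with 1 read there the limit lies higher than this.

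For 7 of the 8 tested members the 95% interval of the fold change lay within 1.2-fold in either direction, and Syt15 was the exception. The widest of the 7 was that of Syt14, which reached 1.16-fold. The signs of these 7 carry little: on leaving out 1 library or another, 12 of the repeated fits turned the sign of Syt11, Syt12, Syt13, Syt14, Syt16 or Syt17, and that of Syt4 and Syt15 was kept in all of them. In the authors' deposited table, which lists 17999 genes, the same 8 members appeared with log2 fold changes that differed from these by at most 0.0008, and the smallest unadjusted p there was 0.111, for Syt15.

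**Figure D4:**
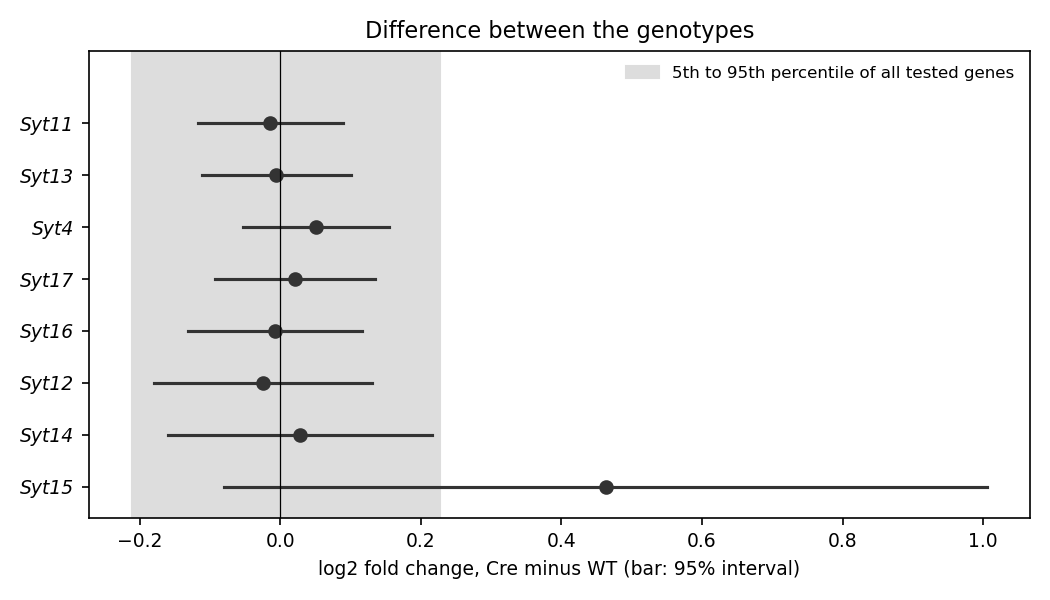
Log2 fold change of each tested member, Cre minus WT, with its 95% interval from edgeR's quasi-likelihood fit on 4 libraries per genotype. Grey shading spans the 5th to 95th percentile of all 15996 genes tested, from -0.21 to 0.23. The intervals of 7 members lie inside the shading and that of Syt15, centred on 0.46, reaches beyond it.

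The members varied to different degrees between libraries of one genotype. The SD of log2 CPM within a genotype was 0.056 for Syt4, 0.058 for Syt11, 0.062 for Syt13 and 0.066 for Syt17. Among tested genes within 2-fold of the same mean CPM, 28.7%, 26.7%, 36.8% and 33.0% had a smaller SD. Syt16 was at 0.083 (52.6%) and Syt12 at 0.117 (74.6%). Syt14 had the largest spread for its level, at 0.157, above 90.1% of the genes within 2-fold of it. Without WT replicate 4 its SD was 0.095, above 71.3% of those genes. Syt15 had an SD of 0.240, and 11.9% of genes at its low level had a smaller one. Without WT replicate 4, those shares were 61.1% for Syt4, 29.3% for Syt11, 71.6% for Syt13 and 60.9% for Syt17, 84.4% for Syt16, 85.4% for Syt12 and 22.3% for Syt15.

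**Figure D5:**
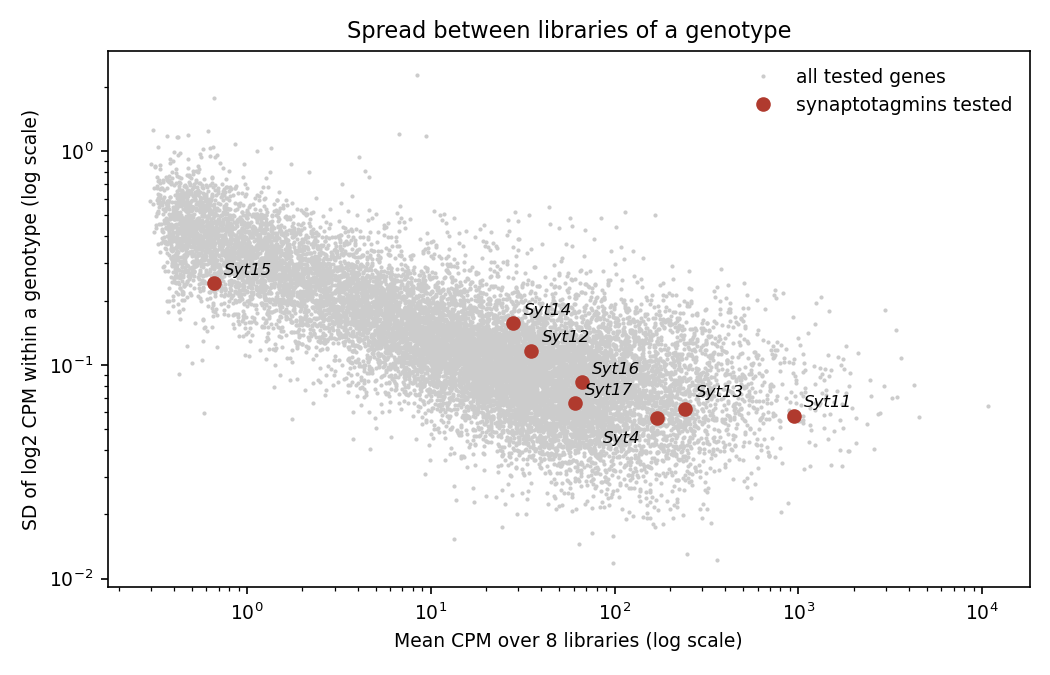
SD of log2 CPM within a genotype against the mean CPM over the 8 libraries, both on log axes. Grey points are all 15996 genes tested and red points the 8 tested members. Syt14 lies towards the upper edge of the genes at its level, with an SD of 0.157, and Syt4, Syt11 and Syt13 lie in the lower part of the cloud at 0.056 to 0.062.

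The pattern of 7 members over the 8 libraries was compared with that of 11500 or 11501 other genes averaging 5 CPM or more, as a description, since the best of so many genes is picked and all share library depth and WT replicate 4. The gene most like Syt4 was 1810041L15Rik (Pearson r = 0.95), that most like Syt11 was Tmem50a (r = 0.98), that most like Syt12 was Sucla2 (r = 0.97) and that most like Syt13 was Vdac3 (r = 0.94). For Syt14 it was Mccc1 (r = 0.98), for Syt15 Trpt1 (r = 0.96) and for Syt17 Zfp189 (r = 0.94). None of these was a member or another synaptotagmin. Without WT replicate 4 another gene came first for each of these 7 members.

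No gene passed the threshold in 4 lists of related genes: the other synaptotagmins, other C2 domain proteins and a relative, dense-core vesicle genes and fusion proteins. Of the other 8 synaptotagmins, all tested, 0 rose and 0 fell (edgeR, adjusted p), with 0 at an unadjusted p under 0.05 and 0 by DESeq2 or limma-voom at either threshold. Their median log2 fold change was 0.06, beside -0.0008 over all genes tested. Those with the smallest p were Syt10, at 5.81 ± 1.68 CPM in WT and 7.14 ± 1.24 CPM in Cre, and Syt2, at 31.8 ± 2.96 CPM in WT and 35.2 ± 5.35 CPM in Cre (SD, n = 4 each). The log2 fold change of Syt2 was 0.14 (SE 0.0989, edgeR unadjusted p = 0.166, adjusted p = 0.998). Of its Cre libraries 2 lay above all WT libraries, and Cre replicate 4, at 28.0 CPM, lay below all of them. A further list held 16 genes, those of other proteins with several C2 domains (Doc2, rabphilin, synaptotagmin-like, extended synaptotagmin and MCTP genes among them) and Rph3al, a relative of rabphilin without C2 domains. Of these, 14 were tested and 0 rose or fell. A total of 12 had a higher and 2 a lower value, with a median log2 fold change of 0.10, and this lean was not tested. Among the 12, Esyt2 was at 42.7 CPM in WT replicate 4 and 67.7 to 69.4 CPM in the other WT libraries. Sytl5 was at 0.84 CPM in WT replicate 4 and 2.35 to 2.39 CPM in the other WT libraries. Sytl2, a Rab27 effector, had means of 26.6 ± 0.79 and 29.03 ± 3.03 CPM in WT and Cre (log2 fold change 0.13, SE 0.0724). Doc2b, a calcium sensor of spontaneous release, was at 166 ± 9.38 and 155 ± 11.3 CPM (log2 fold change -0.09, SE 0.0597, SD with n = 4 each).

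Dense-core vesicle genes, among them the cargo of vesicles that carry Syt4, came next. All 27 were tested, 0 rose and 0 fell, 1 had an unadjusted p under 0.05 with each of edgeR, DESeq2 and limma-voom (3.70% of the list, beside 2.43%, 1.67% and 2.41% of all genes), and the median log2 fold change was -0.01. That 1 gene by edgeR was Bdnf, the neurotrophin, at 57.7 ± 3.85 CPM in WT and 53.0 ± 0.96 CPM in Cre (SD, n = 4 each). Its log2 fold change was -0.12 (SE 0.0542, unadjusted p = 0.039, edgeR adjusted p = 0.998). Next was Penk, the precursor of enkephalins, at 20.5 ± 2.67 and 18.4 ± 1.17 CPM (SD, n = 4 each). Of 23 SNAREs and other fusion proteins, 22 were tested, with 11 higher and 11 lower values, 0 called and 0 at an unadjusted p under 0.05 (also by DESeq2 and limma-voom). Stx3, a plasma membrane syntaxin, was at 0.13 on the log2 fold change scale (SE 0.067) and Stx6, a syntaxin of the trans-Golgi network, was at -0.09 (SE 0.0513).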

How the data were processed

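The build GRCm38 and the tools STAR 2.6.1d, featureCounts and edgeR 3.11 stand in the submitters' processing notes. Which annotation, strand setting and multi-mapping rule were used is not given in the sources used here. For the 8 libraries the authors deposited whole-number read counts per gene name, unscaled, and a table of their comparison with log2 fold changes, mean CPM on a linear and a log2 scale and unadjusted p-values. Its signed fold change column was not used.

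The counts were analysed with R 4.3.3 and edgeR 4.0.16: filterByExpr at its defaults (minimum count 10, minimum total 15), TMM scaling, and the quasi-likelihood F test of Cre minus WT with no covariate. P-values were adjusted by Benjamini-Hochberg over all 15996 rows kept. SE is the size of the log2 fold change over the square root of F, and intervals use each gene's total degrees of freedom. Log2 CPM uses a prior count of 2. Lengths and positions come from GENCODE M21 (95.0% of tested rows matched by name) and promoter letters from RefSeq on GRCm38.p6, where Syt12, Syt13 and Syt17 had no entry. DESeq2 1.42.0 and limma 3.58.1 were alternatives. Scripts were tested on simulated data. Libraries of the same genotype all differed by more than counting noise (chi-square over degrees of freedom 3.16 to 17.8), so none is a copy of another. Each was counted once, although this check cannot show that they come from separate animals. All members were named in every case, with Syt1 and Syt2 for scale, the 2 genes of smallest p of each list, and the best correlated gene of each member, of which that of Syt16 is not reported here. The members and lists were chosen with earlier results of these data known.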

Additional observations from a re-analysis of the deposited data

How the results depend on the processing

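Members called stayed at 0, and genes called in the 4 lists of related genes at 0, in all 16 alternatives (DESeq2, limma-voom, 3 scalings, 2 filters, a replicate block and each library left out). Over all genes 1 was called in 14 of them and 2 with no filter on low counts and with the replicate block. The cause was not tested. Of 127 repeats of a member's fold change 115 kept its sign and 12 turned, each between -0.053 and 0.032 and each on leaving out 1 library. The smallest adjusted p of any was 0.892, for Syt15 without the filter. Syt15 was not tested at a mean of at least 1 CPM. The leave-one-out ranges of the log2 fold change were 0.0247 to 0.0844 for Syt4, -0.0377 to 0.0173 for Syt11, -0.0834 to 0.0300 for Syt12, -0.0291 to 0.0168 for Syt13, -0.0530 to 0.0824 for Syt14, -0.0507 to 0.0318 for Syt16 and -0.0157 to 0.0430 for Syt17.

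With the length of the longest transcript, CPM per kb moved by more than 1 SD to 187 for Syt11 in Cre, and in WT and Cre to 9.93 and 9.75 for Syt12, 2.99 and 3.05 for Syt14, 0.152 and 0.210 for Syt15, 8.14 and 8.09 for Syt16, and 20.4 and 20.7 for Syt17. The share of the family moved to 41.7% and 40.9%, an alternative chosen after seeing the data.

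The replicate numbers showed no pairing of the libraries by expression: deviations of same-numbered libraries correlated between -0.14 and 0.13, and 1 of 8 libraries correlated best with its own number. This check cannot decide whether numbers mark a shared litter or day, since WT replicate 4 weighs on the deviations of all WT libraries. With the replicate block 0 members were called, with 0.455 for Syt15 and 0.035 for Syt14. Few reads limit Syt15 and Syt8.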
